A study of Mus musculus with 7 samples.

Results

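The nuclear genes of oxidative phosphorylation were examined for DNaseI accessibility at their promoters in cultured mouse podocytes. They were taken by symbol as all protein-coding genes on chromosomes 1 to 19 named Nduf, Sdha to Sdhd, Uqcr, Cox4 to Cox8 or Atp5 in GENCODE vM21, and comprised 91 gene records of 21853 on chromosomes 1 to 19, X and Y, with 214 transcription start sites (TSSs) of 54361. By complex, 44 were assigned to complex I, 4 to complex II, 8 to complex III, 17 to complex IV and 18 to complex V. The 91 records carry 90 symbols, because the annotation gives *Atp5o* 2 gene records. The second starts inside the first and is called *Atp5o-long* here.

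Oxidative phosphorylation takes place in the inner mitochondrial membrane. Complex I (NADH dehydrogenase) and complex II (succinate dehydrogenase) pass electrons to ubiquinone, complex III (the cytochrome bc1 complex) passes them on to cytochrome c, and complex IV (cytochrome c oxidase) to oxygen, while complexes I, III and IV pump protons and complex V (ATP synthase) uses the proton gradient to make ATP. Most subunits are encoded in the nucleus and are made in nearly every cell, so their promoters are typical housekeeping promoters. The factors NRF1, GABP and YY1 and the coactivators of the PGC-1 family are known to act on many of them. The kidney is rich in mitochondria, and mitochondrial changes are among those described in diabetic kidney disease.

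The podocytes were a conditionally immortalised mouse line, growth-arrested in reduced serum and then treated for 36 h. NG cells had 5 mM glucose. HG+NT cells had 25 mM glucose and a nontargeting mimic at 50 nM, and HG+miR-93 cells the same glucose and a miR-93 mimic at 50 nM. For the NG cells the labels name no mimic, so that glucose and transfection cannot be told apart between NG and HG+NT, whereas HG+NT and HG+miR-93 differ in the mimic alone. Each condition had 2 replicates, but 1 peak list per condition was deposited, and 1 genomic DNA input served for all 3. There was thus no replicate check and no test between conditions, and the values of the 3 lists are set side by side.

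DNaseI cuts DNA that nucleosomes do not cover, and the peak caller MACS2 reports for each peak a fold, which is the number of fragments at the summit over the local mean of the input, each raised by 1. The lists held 846027 to 1036304 peaks, and any p up to 0.9 was admitted, so that 21835 genes had a peak within 500 nt of a TSS in all 3 lists. A promoter peak was therefore no finding in itself, and its height was used. For each gene the promoter peak with the highest fold was taken and its fold expressed as a percentile within its list. As a second measure, the number of fragments at each summit was solved from the fold and p, and the highest scaled number among a gene's promoter peaks is its pileup. The unit of the pileup is a fragment after scaling to the depth of the input, and the 95% intervals beside it are exact Poisson intervals, which hold counting error and no other error. Relative to NG, the lists rested on 1.72 times (HG+NT) and 2.30 times (HG+miR-93) the fragments, so that counting error was widest in NG.

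Of the podocyte markers, *Synpo*, encoding the actin-associated synaptopodin, had percentiles of 91.1 in NG, 96.3 under HG+NT and 71.4 under HG+miR-93, and *Nphs1*, encoding the slit diaphragm protein nephrin, had 9.99, 55 and 64.1. The 8 podocyte markers had median percentiles of 48.7, 67.6 and 66.7 in the order NG, HG+NT, HG+miR-93, and the 7 markers of other cell types (*Ptprc*, *Pecam1*, *Cdh5*, *Slc34a1*, *Umod*, *Alb*, *Myh6*) had 23.6, 48.4 and 70.2. By pileup the medians were 5.14, 4.93 and 5.05 for the podocyte markers and 4.02, 3.9 and 4.66 for the others, and no marker was at 0. The summits by fold lay at 337, 332 and -3153 nt from the nearest TSS for *Synpo* and at -1791, 442 and 7639 nt for *Nphs1*. By pileup, the summit was within 500 nt of a TSS for 4, 6 and 4 of the 8 podocyte markers. For the 7 others it was so for 4, 2 and 1. Many of these peaks thus overlapped the promoter with a summit elsewhere. By fold *Synpo* ranked high and *Nphs1* low in NG, and under HG+miR-93 the markers of other cells did not rank lower.

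Promoter sequences are shown for 5 of the genes that the results turn on: the complex I and III genes that ranked highest over the lists, a complex II gene whose pileup intervals were apart between NG and HG+miR-93, and a ubiquitous and a tissue-restricted isoform of the same complex IV subunit. Each run covers 250 nt before to 20 nt after 1 TSS on GRCm38, the build of the lists, and is written 5′ to 3′ on the strand of the gene. Capitals mark matches, on either strand, to the motifs searched in the window from 250 nt before to 50 nt after a TSS, which were the NRF1 core CGCANGCG, the ETS motif CCGGAAG bound by GABP, the YY1 motif AANATGGCG, the GC box GGGCGG, the CCAAT box, the cAMP response element TGACGTCA and the TATA box TATAAA.
Ndufb2: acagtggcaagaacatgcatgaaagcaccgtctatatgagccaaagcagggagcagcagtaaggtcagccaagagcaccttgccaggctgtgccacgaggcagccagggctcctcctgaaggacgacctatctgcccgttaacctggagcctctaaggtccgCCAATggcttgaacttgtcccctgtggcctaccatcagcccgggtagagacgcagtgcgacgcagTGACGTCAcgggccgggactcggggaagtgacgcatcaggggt
Uqcrq: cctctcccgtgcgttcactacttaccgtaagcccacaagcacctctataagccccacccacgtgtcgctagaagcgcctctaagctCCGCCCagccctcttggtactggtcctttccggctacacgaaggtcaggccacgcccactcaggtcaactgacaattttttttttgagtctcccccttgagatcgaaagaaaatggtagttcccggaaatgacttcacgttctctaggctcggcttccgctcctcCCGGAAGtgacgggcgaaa
Sdha: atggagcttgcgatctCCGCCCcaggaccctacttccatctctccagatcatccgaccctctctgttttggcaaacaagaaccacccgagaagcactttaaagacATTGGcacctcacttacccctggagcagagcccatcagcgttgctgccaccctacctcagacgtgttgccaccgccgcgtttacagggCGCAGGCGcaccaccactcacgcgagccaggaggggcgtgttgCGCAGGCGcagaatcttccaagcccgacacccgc
Cox4i1: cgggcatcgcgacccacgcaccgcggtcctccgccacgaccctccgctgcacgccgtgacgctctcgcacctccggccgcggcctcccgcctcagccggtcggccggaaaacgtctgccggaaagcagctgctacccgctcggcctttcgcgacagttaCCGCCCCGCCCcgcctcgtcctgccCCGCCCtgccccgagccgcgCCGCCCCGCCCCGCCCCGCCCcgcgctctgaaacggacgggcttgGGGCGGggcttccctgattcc
Cox4i2: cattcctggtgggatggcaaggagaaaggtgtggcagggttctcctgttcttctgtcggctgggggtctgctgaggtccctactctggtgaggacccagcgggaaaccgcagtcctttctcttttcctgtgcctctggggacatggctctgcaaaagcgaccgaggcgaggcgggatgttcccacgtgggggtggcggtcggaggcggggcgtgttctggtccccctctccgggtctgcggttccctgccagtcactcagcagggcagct

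*Ndufb2* (chr6:39592324-39592593, plus strand) holds a CCAAT box starting at -88 and a cAMP response element at -23 relative to the TSS. *Uqcrq* (chr11:53430808-53431077, minus strand) holds a GC box at -164 and an ETS motif at 2. *Sdha* (chr13:74350261-74350530, minus strand) holds NRF1 cores at -57 and -14, and 1 more match at 32 beyond the printed run. The ubiquitous *Cox4i1* (chr8:120667972-120668241, plus strand) has 8 matches to the GC box, 7 of them between -91 and -31 and some overlapping, with a ratio of observed to expected CpG of 1.20, whereas *Cox4i2* (chr2:152753923-152754192, plus strand) held none of the 7 motifs, with a ratio of 0.538.

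The promoter peaks of the oxidative phosphorylation genes were well centred in each condition, and their median lay above that of all genes by pileup but not throughout by fold. The summit of the strongest peak lay within 500 nt of a TSS for 80 of 91 genes in NG, 82 under HG+NT and 80 under HG+miR-93 (87.9%, 90.1% and 87.9%), against 60.9%, 57.7% and 56.9% of all genes. The 3 housekeeping families given below had similar shares, 85% to 97.4% in NG, 82.6% to 87.5% under HG+NT and 79.1% to 88.5% under HG+miR-93. The median pileup of the 91 genes was 8.49 in NG, 7.01 under HG+NT and 6.22 under HG+miR-93, or 19, 27 and 32 fragments, where all genes had 5.81, 4.93 and 4.86. By pileup the median percentile of the 91 genes was hence 71.6, 73.3 and 70.1. By fold it was 58.6, 43.9 and 44.4, against 50.9, 49.9 and 49.8 for all genes. The local mean of the input at these peaks was also high, with medians of 3.40, 3.80 and 3.40 against 2.00 for all genes in each list, and the fold divides by it. The 2 measures thus placed the same genes differently, above the middle of the list by pileup in all 3 conditions and below it by fold in HG+NT and HG+miR-93.

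**Figure D1:**
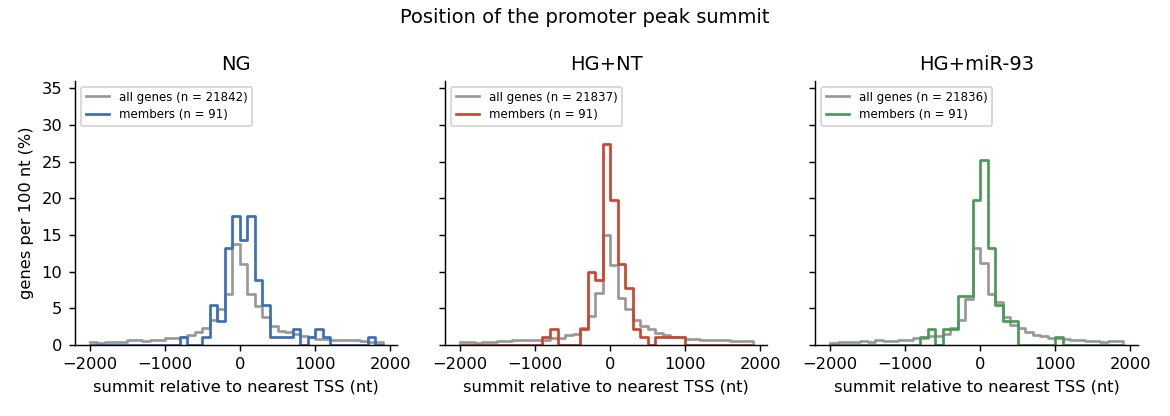
Share of genes (%) per 100 nt of distance between the summit of the strongest promoter peak by fold and the nearest TSS, for the 91 oxidative phosphorylation genes (coloured) and for all genes with a promoter peak (grey), 1 panel per condition. In each panel the coloured line is the more concentrated around 0, with 80, 82 and 80 of the 91 summits within 500 nt.

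A strong promoter peak was defined as one among the 20000 strongest of its list by −log10 p and then by fold. By this definition 43 of the 91 genes had one in NG, where 33.4% of all genes did, 27 in HG+NT, against 25.9%, and 21 in HG+miR-93, against 21.5%. As shares these were 47.3%, 29.7% and 23.1%, above that of all genes in NG and nearer to it in the other lists. In NG, 7 of the 91 had a −log10 q above 0 at their strongest peak (7.69%, against 1.84% of all genes), the highest being 1.02 at *Ndufaf2*, an assembly factor of complex I. In HG+NT and HG+miR-93 none did, against 2.20% and 0.11% of all genes. Over all their promoter peaks, 130 in NG, 127 under HG+NT and 128 under HG+miR-93, the highest −log10 q was the same 1.02, so that none reached 2 and each promoter alone is a weak call.

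**Figure D2:**
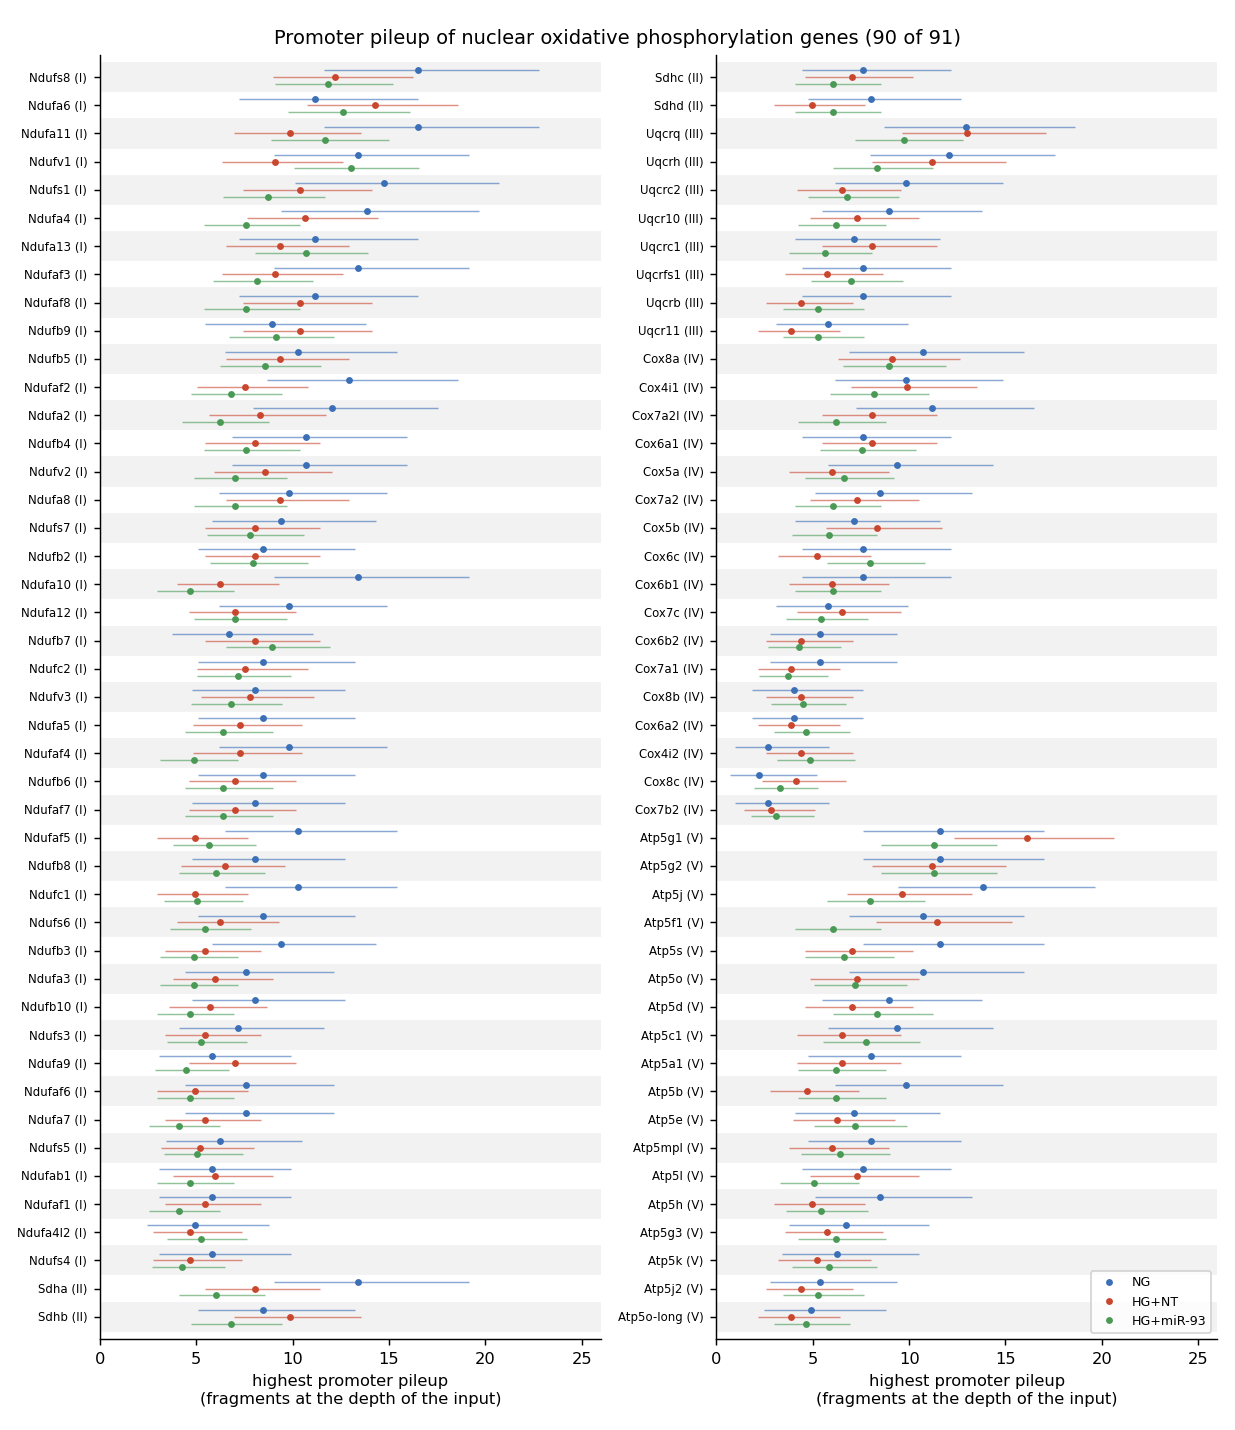
Pileup (fragments at the depth of the input) of 90 of the 91 genes in the 3 conditions, with the complex in brackets after the gene symbol. Points are the highest promoter pileup, lines its 95% exact Poisson interval, and within each complex genes are ordered by their mean level, so that the restricted Cox isoforms stand at the foot of complex IV and *Ndufs8*, *Ndufa6* and *Ndufa11* at the head of complex I.

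In complex I, the 3 core subunits that bind NADH and its first electron acceptors had tall peaks in NG, with pileups of 14.7 (10.1 to 20.7) in NG, 10.4 (7.42 to 14.1) under HG+NT and 8.75 (6.38 to 11.7) under HG+miR-93 for *Ndufs1*. *Ndufv1*, which carries the NADH site, had 13.4, 9.09 and 13 in the same order, and *Ndufv2* 10.7, 8.57 and 7.0. Of the 4 core subunits that lead electrons to ubiquinone, *Ndufs8*, an iron-sulphur subunit, had the tallest peak, with 16.5 (11.6 to 22.8) in NG, 12.2 (8.97 to 16.2) under HG+NT and 11.9 (9.07 to 15.2) under HG+miR-93. *Ndufs3* and *Ndufs7* lay lower, with NG pileups of 7.15 and 9.38. The intervals of *Ndufs8* and *Ndufs3*, picked as the highest and the lowest of these 4, were apart in each list, in NG only just. By pileup the 27 other complex I subunits ranged in NG from 5.81 to 16.5, the last being *Ndufa11*, a membrane arm subunit, and in HG+miR-93 from 4.08 at *Ndufa7* to 12.6 at *Ndufa6*.

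By fold, *Ndufb2* and *Ndufa12*, accessory subunits of complex I, ranked highest over the 3 lists. *Ndufb2* stood at percentiles of 97.3 in NG, 96.7 under HG+NT and 98.3 under HG+miR-93, with pileups of 8.49 (5.11 to 13.3) in NG, 8.05 (5.47 to 11.4) under HG+NT and 7.97 (5.72 to 10.8) under HG+miR-93. *Ndufa12* stood at 99.1 in NG, 93 under HG+NT and 95.5 under HG+miR-93, with summits at -4, 19 and 5 nt from the TSS. Both were thus high in all 3 lists, with local input means of 1.8, 2.0 and 2.0 at *Ndufb2* and 1.8, 2.0 and 2.0 at *Ndufa12*. The lowest were *Ndufs4*, whose loss is a known cause of Leigh syndrome, with 2.56 in NG, 32.8 under HG+NT and 3.59 under HG+miR-93, and *Ndufa7*, with 19 in NG, 2.6 under HG+NT and 19.8 under HG+miR-93. At *Ndufs4* the local input mean was 6.0, 2.8 and 5.0 fragments, so that pileups of 5.81, 4.67 and 4.28 gave a fold below 1 in NG and HG+miR-93.

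*Ndufa4* is named for complex I but its product is known as a subunit of complex IV, and *Ndufa4l2* is its hypoxia-inducible relative. The pileup of *Ndufa4* was 13.8 (9.41 to 19.7) in NG, 10.6 (7.64 to 14.4) under HG+NT and 7.58 (5.39 to 10.4) under HG+miR-93, and that of *Ndufa4l2* was 4.91 (2.45 to 8.79) in NG, 4.67 (2.77 to 7.39) under HG+NT and 5.25 (3.46 to 7.63) under HG+miR-93. *Ndufa4* was the higher of the pair in all 3 lists, with intervals that did not overlap in NG and HG+NT and overlapped in HG+miR-93. The 8 Ndufaf genes encode assembly factors that are no part of the finished complex. Their median percentile by fold was 75.5 in NG, 39.1 under HG+NT and 20.9 under HG+miR-93, and their median pileup 10.05, 7.14 and 6.02. Ranked by pileup, their median percentile was 82.5, 74.3 and 67.1, so that the place below the middle was seen by fold alone. Between NG and HG+miR-93 their median pileup ratio was 0.612, against 0.756 for the 91 genes and 0.846 for all genes. *Ndufaf2* stayed high by fold, at 99.8, 92.9 and 91.2, and *Ndufaf1* stood at 75.9, 76.4 and 77.1.

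Complex II has 4 subunits, of which *Sdha* carries the flavin, *Sdhb* the iron-sulphur clusters, and *Sdhc* and *Sdhd* anchor the enzyme in the membrane. The pileup of *Sdha* was 13.4 (9.04 to 19.1) in NG, 8.05 (5.47 to 11.4) under HG+NT and 6.02 (4.09 to 8.55) under HG+miR-93, and its percentile 92, 56.1 and 54.3. Its NG and HG+miR-93 intervals did not overlap. For *Sdhb* the pileup was 8.49 (5.11 to 13.3) in NG, 9.87 (6.98 to 13.5) under HG+NT and 6.8 (4.74 to 9.46) under HG+miR-93, with the highest value in HG+NT and overlapping intervals. *Sdhc* had 7.59 (4.42 to 12.2) in NG, 7.01 (4.62 to 10.2) under HG+NT and 6.02 (4.09 to 8.55) under HG+miR-93 and *Sdhd* 8.04 (4.76 to 12.7) in NG, 4.93 (2.97 to 7.71) under HG+NT and 6.02 (4.09 to 8.55) under HG+miR-93, each with overlapping intervals, and the HG+NT value of *Sdhd* had 3 solutions, of which the one with the fewest fragments is given. By fold, *Sdhd* had the largest fall and then the largest rise of all 91 genes, from 94 in NG to 5.92 under HG+NT and 82.7 under HG+miR-93. Its local input mean was 2.0, 5.0 and 2.2 in the same order, its summits were -386, -93 and -287 nt away from the TSS, and its peak was shared with *Timm8b*, which starts 98 nt away on the other strand.

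Of complex III, *Uqcrq* and *Uqcrh* ranked highest and *Uqcrb* and *Uqcr11* lowest by fold. *Uqcrq*, a small subunit of the complex, had pileups of 13 (8.67 to 18.6) in NG, 13 (9.64 to 17.1) under HG+NT and 9.72 (7.21 to 12.8) under HG+miR-93, and *Uqcrh*, the hinge protein next to cytochrome c1, had 12.1 (7.95 to 17.5) in NG, 11.2 (8.08 to 15) under HG+NT and 8.36 (6.05 to 11.3) under HG+miR-93. *Uqcrb*, a subunit at the ubiquinone site, had 7.59 (4.42 to 12.2) in NG, 4.41 (2.57 to 7.07) under HG+NT and 5.25 (3.46 to 7.63) under HG+miR-93, and *Uqcr11* 5.81 (3.09 to 9.93) in NG, 3.9 (2.18 to 6.42) under HG+NT and 5.25 (3.46 to 7.63) under HG+miR-93. In HG+NT the intervals of *Uqcrq* and *Uqcrh* lay above those of *Uqcrb* and *Uqcr11*, and in NG all 4 overlapped. The core subunits *Uqcrc1* and *Uqcrc2* and the Rieske protein *Uqcrfs1* had NG pileups of 7.15, 9.83 and 7.59.

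Several subunits of complex IV have isoforms made in particular tissues, and by pileup these isoforms had low promoter peaks in each list. *Cox4i2* is known from lung and hypoxic cells, *Cox6a2*, *Cox7a1* and *Cox8b* from heart and skeletal muscle, and *Cox6b2*, *Cox7b2* and *Cox8c* from testis. Their median pileup was 4.02 in NG, 4.15 under HG+NT and 4.28 under HG+miR-93, against 8.04, 7.66 and 6.41 for the 10 other complex IV genes. In NG the 7 restricted isoforms were all among the 10 lowest of the 91 genes, with *Ndufa4l2*, *Atp5o-long* and *Atp5j2* as the others. Under HG+NT they were among the 11 genes at or below 4.41, and under HG+miR-93 6 of them were among the 15 at or below 4.66, the exception being *Cox4i2*. The highest restricted isoform stood at 5.36 in NG, 4.41 under HG+NT and 4.86 under HG+miR-93, so that none exceeded the median of all genes of 5.81, 4.93 and 4.86. By fold the median percentile of the 7 was 33.5, 48.4 and 30.5, against 66.8, 41.1 and 35.3 for the 10 others. They were thus not lower by fold under HG+NT.

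For the subunit 4 pair, the pileup of the ubiquitous *Cox4i1* was 9.83 (6.16 to 14.9) in NG, 9.87 (6.98 to 13.5) under HG+NT and 8.16 (5.88 to 11) under HG+miR-93, and that of *Cox4i2* 2.68 (0.983 to 5.83) in NG, 4.41 (2.57 to 7.07) under HG+NT and 4.86 (3.14 to 7.17) under HG+miR-93. The intervals of *Cox4i1* and *Cox4i2* were apart in NG, at 22 and 6 fragments, and overlapped in the other lists. For subunit 8, *Cox8a* had 10.7 (6.87 to 15.9) in NG, 9.09 (6.33 to 12.6) under HG+NT and 8.94 (6.54 to 11.9) under HG+miR-93, *Cox8b* 4.02, 4.41 and 4.47 and *Cox8c* 2.23, 4.15 and 3.3. The intervals of *Cox8a* and *Cox8c* were apart in NG and HG+miR-93 and overlapped in HG+NT, and those of *Cox8a* and *Cox8b* overlapped in each list. The other pairs kept the same order in all 3 lists, with *Cox6a1* at 7.59, 8.05 and 7.58 above *Cox6a2* at 4.02, 3.9 and 4.66, *Cox6b1* at 7.59, 5.97 and 6.02 above *Cox6b2* at 5.36, 4.41 and 4.28, and *Cox7a2* at 8.49, 7.27 and 6.02 above *Cox7a1* at 5.36, 3.9 and 3.69, though the intervals within these 3 pairs overlapped in each list. By fold the order could be the inverse, as *Cox6b2* stood at a percentile of 82 in NG and *Cox6b1* at 41.4.

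**Figure D3:**
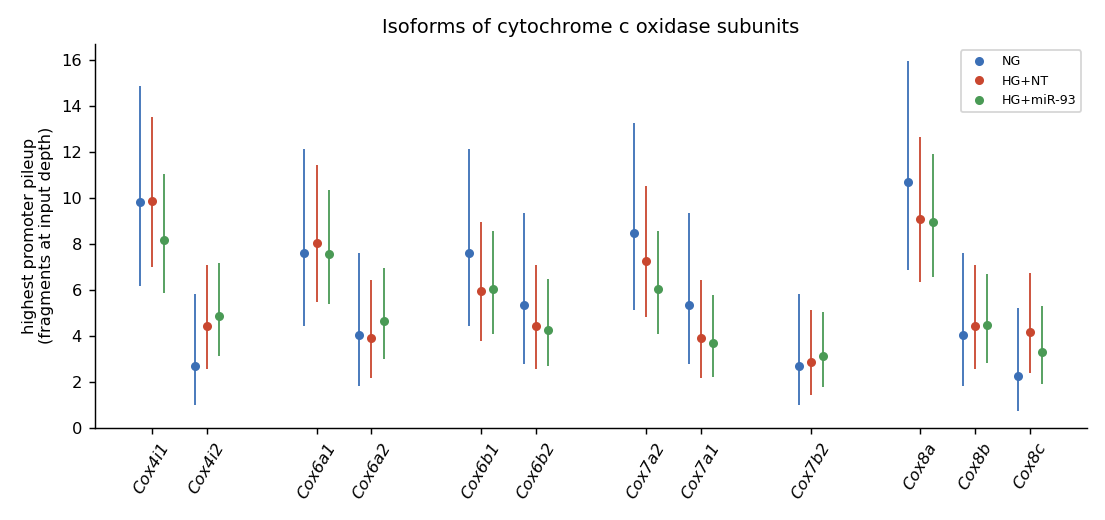
Highest promoter pileup (fragments at the depth of the input) of ubiquitous and tissue-restricted isoforms of complex IV subunits in the 3 conditions, with 95% exact Poisson intervals as bars. Within each subunit the ubiquitous isoform (*Cox4i1*, *Cox6a1*, *Cox6b1*, *Cox7a2*, *Cox8a*) is drawn to the left of its restricted relatives and lies above them, by 9.83 against 2.68 in NG for subunit 4, and *Cox7b2* stands alone because *Cox7b* lies on X.

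By fold, *Cox5b*, a nuclear subunit on the matrix side, ranked highest in complex IV, with 94.1 in NG, 97.2 under HG+NT and 86 under HG+miR-93, followed by *Cox6c* with 68.6, 85.8 and 98.3. The lowest were *Cox7a2l*, which helps complexes III and IV associate into supercomplexes, with 3.04, 20.4 and 5.21, and *Cox7c* with 28.8, 3.56 and 20.5. At its strongest peak by fold, *Cox7a2l* had a local input mean of 11, 6.0 and 5.0, while its NG pileup of 11.2 was the highest of complex IV.

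Of complex V, *Atp5g1* and *Atp5g2*, which encode the same subunit of the proton-driven ring, had tall peaks in all 3 lists. They were the tallest of the complex in HG+miR-93, whereas *Atp5j* was taller in NG, at 13.8. In HG+NT *Atp5f1*, at 11.4, lay above *Atp5g2*. *Atp5g1* had pileups of 11.6 (7.59 to 17) in NG, 16.1 (12.3 to 20.6) under HG+NT and 11.3 (8.56 to 14.6) under HG+miR-93 and *Atp5g2* 11.6 (7.59 to 17) in NG, 11.2 (8.08 to 15) under HG+NT and 11.3 (8.56 to 14.6) under HG+miR-93, while *Atp5g3*, the remaining gene of this subunit, had 6.7 (3.75 to 11.1) in NG, 5.71 (3.58 to 8.65) under HG+NT and 6.22 (4.25 to 8.78) under HG+miR-93. The HG+NT value of *Atp5g1* was the highest of the 91 genes in that list, and its interval and that of *Atp5g3* did not overlap in HG+NT and overlapped in NG and HG+miR-93. The 5 subunits of the catalytic F1 head and its stalk were more uniform, between 7.15 and 9.83 in NG, 4.67 and 7.01 in HG+NT, and 6.22 and 8.36 in HG+miR-93. By fold, *Atp5o*, the subunit that ties the stator to the F1 head, ranked highest, with 98.5 in NG, 87.2 under HG+NT and 85.8 under HG+miR-93, followed by *Atp5a1*, the alpha subunit, with 74.7, 78.2 and 78.7. The lowest were *Atp5j2*, with 10.5, 13.2 and 29.7, and *Atp5o-long*, with 20.5, 33.9 and 2.43.

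From NG to HG+NT, the percentile by fold was higher by at least 20 points at 13 of the 91 genes, where 24.6% of all genes were called, and lower by at least 20 points at 30, where 24.6% were called. The members called were thus 14.3% and 33.0%. The median change of the 91 genes was -8.50 points, against 0.0916 for all genes. Ranked by pileup in place of fold, 5 were higher (5.49%, against 10% of all genes) and 8 lower (8.79%, against 10.1%), so that the larger share of falls was seen by fold and not by pileup rank. By pileup itself, 73 of 91 were higher in NG than in HG+NT (80.2%, against 64.4% of all genes), and the median ratio of HG+NT to NG was 0.808, against 0.894. No member had pileup intervals that were apart in either direction, where 0.234% of all genes were called higher and 0.998% lower. The percentiles of the 91 genes in NG and HG+NT had a Spearman's rho of 0.392 by fold and 0.742 by pileup, as a description across genes whose lists share the input.

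The largest rises were at *Ndufa13*, *Ndufa4l2* and *Ndufa6*. *Ndufa13*, a complex I subunit also known as GRIM-19, changed by 74 points, from 14.5 to 88.6. Its pileup was 11.2 (7.23 to 16.5) in NG, 9.35 (6.55 to 12.9) under HG+NT and 10.7 (8.05 to 13.9) under HG+miR-93, which was not higher in HG+NT, and its local input mean was 8.0, 3.2 and 4.0. Its summits were at 1192, 887 and -790 nt relative to the nearest TSS, so different positions were compared. *Ndufa4l2* changed by 69.5 points at pileups of 4.91, 4.67 and 5.25 and input means of 4.0, 1.62 and 5.0, also at different positions, with summits at 759, -238 and 5812 nt. *Ndufa6* changed by 48.1 points, and here the pileup was also higher in HG+NT, at 11.2 (7.23 to 16.5) in NG, 14.3 (10.8 to 18.6) under HG+NT and 12.6 (9.75 to 16.1) under HG+miR-93, with overlapping intervals.

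The largest falls were at *Sdhd*, described above, at *Ndufa10* and at *Atp5h*. *Ndufa10*, an accessory subunit of the membrane arm, changed by -84.2 points, from 98.9 to 14.7, and stood at 2.43 in HG+miR-93. Its summits were -4, 41 and -25 nt away from a TSS, so nearby but not identical positions were compared. Its pileup was 13.4 (9.04 to 19.1) in NG, 6.23 (3.99 to 9.27) under HG+NT and 4.66 (2.99 to 6.94) under HG+miR-93. The HG+NT interval reached just above the lower end of that of NG. The local input mean was 2.8, 5.0 and 6.0, so that the divisor of the fold also differed between these positions. *Atp5h*, a subunit of the stator, changed by -75 points, with pileups of 8.49 (5.11 to 13.3) in NG, 4.93 (2.97 to 7.71) under HG+NT and 5.44 (3.62 to 7.86) under HG+miR-93. Under HG+NT its peak with the highest fold was another one, with a summit at -345 nt from the TSS and a pileup of 2.34, and the summits of the other lists lay at 23 (NG) and -618 nt (HG+miR-93).

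In the step from HG+NT to HG+miR-93, 17 of the 91 genes were higher by at least 20 points, where 20% of all genes were called, and 20 were lower, where 20.1% were called. These are 18.7% and 22.0% of the 91 genes, close to the shares of all genes, and the median change was -1.40 points against 0.0321. No pileup intervals were apart, where 0.0824% of all genes were called higher and 0.353% lower. The largest rises were at *Sdhd*, at *Cox8b* (50.9 points, pileups of 4.02, 4.41 and 4.47, summits at 1033, -2043 and 247 nt) and at *Atp5d*, the delta subunit of the central stalk (47.9 points, pileups of 8.93, 7.01 and 8.36). The largest falls were at *Ndufa4l2* (-69.2 points), at *Ndufa9*, a subunit near the ubiquinone site (-56.5 points), and at *Ndufaf8*, an assembly factor (-55.3 points). *Ndufa9* had pileups of 5.81 (3.09 to 9.93) in NG, 7.01 (4.62 to 10.2) under HG+NT and 4.47 (2.83 to 6.71) under HG+miR-93 and *Ndufaf8* of 11.2 (7.23 to 16.5) in NG, 10.4 (7.42 to 14.1) under HG+NT and 7.58 (5.39 to 10.4) under HG+miR-93, with overlapping intervals between HG+NT and HG+miR-93.

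The complexes had different median changes in this step, although no test of a difference between them was possible. Complex V had a median change of 10.6 points from HG+NT to HG+miR-93, with 6 of 18 genes higher (33.3%) and 3 lower (16.7%), where 20% and 20.1% of all genes were called, and 4 of the 5 F1 genes were higher, *Atp5b*, *Atp5c1*, *Atp5d* and *Atp5e*. Complex I had a median change of -2.96 points, with 6 of 44 higher (13.6%) and 12 lower (27.3%), and the Ndufaf genes -11.3 points, with 1 of 8 higher (12.5%) and 4 lower (50%). In complex III 3 of 8 were higher (37.5%) and 1 lower (12.5%), in complex IV 1 of 17 (5.88%) and 3 (17.6%), and in complex II 1 of 4 each. Complex V had fallen before, with a median change of -13.0 points from NG to HG+NT and -2.12 from NG to HG+miR-93. By pileup, the ratio of HG+miR-93 to HG+NT was 1.08 at the median of complex V and 0.901 at that of complex I. Ranked by pileup, the median changes were 9.12 points for complex V, -1.34 for complex I and -2.90 for the Ndufaf genes. HG+NT was the highest or the lowest of the 3 lists at 52 of the 91 genes (57.1%), where 62% of all genes were called.

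**Figure D4:**
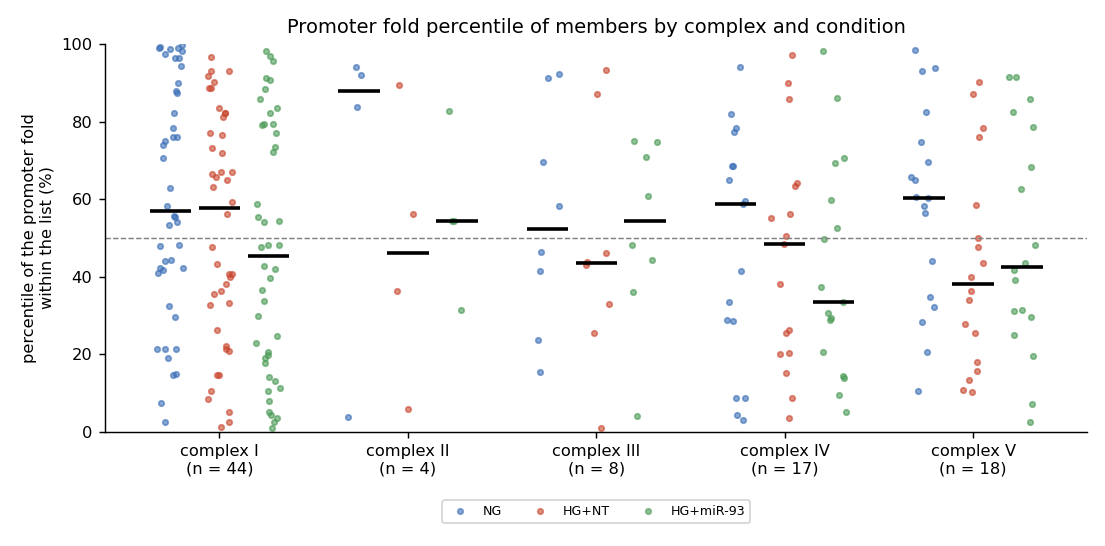
Percentile of the promoter fold within its list (%) for each gene of complexes I to V in the 3 conditions (NG, HG+NT, HG+miR-93), with the median of each complex and condition as a black bar and the middle of the list as a dashed line. The points of each complex span most of the range, and the medians lie at 57.0, 57.7 and 45.2 for complex I and at 60.4, 38.1 and 42.5 for complex V.

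From NG to HG+miR-93, 16 of the 91 genes were higher by at least 20 points, where 25.2% of all genes were called, and 30 were lower, where 25.4% were called. Their median change was -11.3 points, against -0.119 for all genes. By pileup, 80 of the 91 were higher in NG (87.9%, against 69.8% of all genes), and 47 followed the order NG, HG+NT, HG+miR-93 (51.6%, against 34.5%). The pileup intervals of *Ndufa10* and *Sdha* were apart and lower in HG+miR-93, which makes 2 of 91 (2.20%), where 1.31% of all genes were called. None was apart and higher, where 0.115% were called. The order of the pileups was thus the inverse of the order of the depths, and the part of depth in it was not tested.

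Of the 91 genes, 11 lie on chromosomes 8, 15 and 19, on which HG+NT ranked above NG at the median of all genes. These are *Ndufa13*, *Ndufb7* and *Cox4i1* on chromosome 8, *Ndufa6*, *Ndufb9*, *Cox6c* and *Atp5g2* on chromosome 15, and *Ndufb8*, *Ndufs8*, *Ndufv1* and *Cox8a* on chromosome 19. From NG to HG+NT their median change was 33.5 points, against 11.7 for all genes on these chromosomes, and 6 of the 11 were higher by at least 20 points (54.5%, against 39.7% of all genes there), which makes 6 of the 13 rises. The 80 genes on the other autosomes had a median change of -13.6 points, against -1.28 for all genes outside the 3 chromosomes. Of these 80, 7 were higher (8.75%, against 22.6% of all genes there) and 29 lower (36.2%, against 26%). By pileup the median ratio of HG+NT to NG was 0.848 for the 11 genes and 0.804 for the 80, against 1.09 and 0.872 for all genes. Ranked by pileup, the median change of the 11 genes was 0.465 points, against 9.03 for all genes on these chromosomes, so that their difference by fold was not seen at this size by pileup, and the part of the chromosomes in them was not tested.

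**Figure D5:**
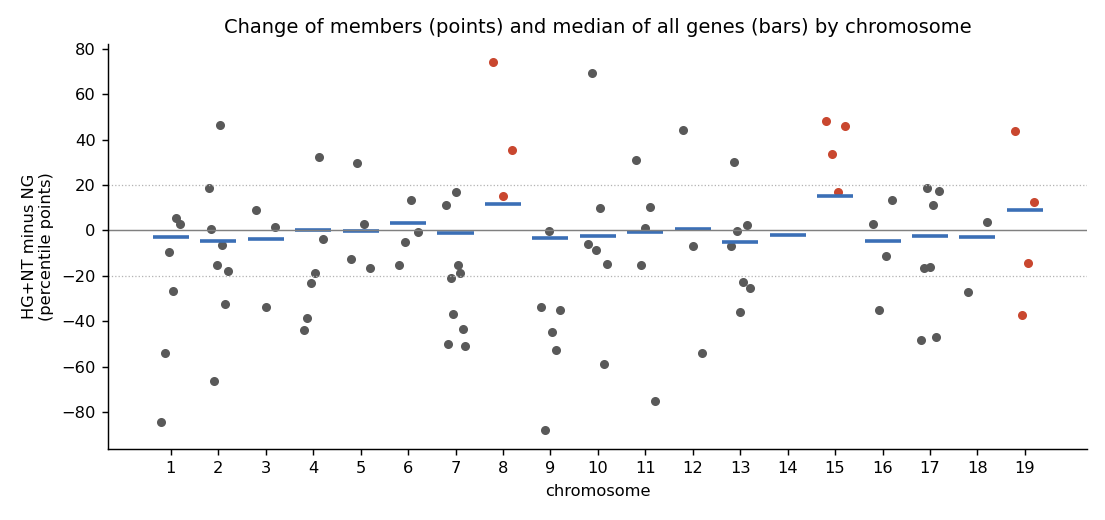
Change of the promoter percentile by fold from NG to HG+NT (percentile points) for each of the 91 genes by chromosome, with the median of all genes on that chromosome as a blue bar, the 11 genes of chromosomes 8, 15 and 19 in red and the thresholds of 20 points dotted. Of the red points, 6 lie above the upper threshold, led by *Ndufa13*, while 29 of the other 80 lie below the lower one.

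The promoters share features that were not used to choose the genes. In the window from 250 nt before to 50 nt after 1 TSS per gene, the median ratio of observed to expected CpG was 0.807, against 0.556 for all genes, at a similar GC content of 56.0% and 55.7%. The NRF1 core was found in 27 of the 91 windows (29.7%), against 11.1% of all genes. The ETS motif was found in 16 (17.6%, against 11.2%), the YY1 motif in 5 (5.49%, against 3.13%) and the cAMP response element in 5 (5.49%, against 2.51%). The NRF1 core was thus the motif whose share stood furthest above that of all genes. The motif contains CpG itself, its share was not compared among promoters of similar CpG ratio, and the part of CpG in it was not tested. The GC box (44.0%, against 45.3%), the CCAAT box (37.4%, against 38.6%) and the TATA box (11%, against 12.5%) did not exceed the shares of all genes. None of the 7 restricted isoforms held an NRF1 core, an ETS motif or a YY1 motif, and their median CpG ratio was 0.432 against 0.829 for the other 84.

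A CpG ratio of at least 0.6 was found for 67 of the 91 genes (73.6%, against 46.8% of all genes). The median pileup of these 67 was 9.38 in NG, 7.27 under HG+NT and 6.61 under HG+miR-93, and all genes with such a ratio had 8.49, 6.75 and 6.22. By pileup the distance to other genes was thus smaller among promoters of this kind than over all genes. By fold the same 67 had median percentiles of 64.9, 47.5 and 47.7, against 65.7, 61.2 and 58.4, and the distance was larger than over all genes under HG+NT and HG+miR-93. The 27 genes with an NRF1 core had median pileups of 8.93, 7.01 and 6.22, and the 64 without one 8.49, 7.01 and 6.32.

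A start of another protein-coding gene lay upstream on the other strand within 1000 nt for 29 of the 91 genes (31.9%), against 9.87% of all genes, at a median distance of 99.0 nt. At 23 of the 29, the gene and its partner had the same peak values in all 3 lists, so that the value belongs to a promoter of 2 genes. No partner was itself an oxidative phosphorylation gene. *Ndufs1* starts 3 nt from *Eef1b2*, a translation elongation factor, and *Ndufa7* 10 nt from *Rps28*, a ribosomal protein. *Atp5j*, a subunit of the stator, starts 686 nt from *Gabpa*, which encodes the DNA-binding subunit of GABP, and the pair had the same pileups of 13.8 (9.41 to 19.7) in NG, 9.61 (6.77 to 13.2) under HG+NT and 7.97 (5.72 to 10.8) under HG+miR-93. Over the 29 genes the median percentile by fold was 74.0 in NG, 47.5 under HG+NT and 43.4 under HG+miR-93, and over the other 62 it was 55.5, 43.6 and 46.2.

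Of the regulators of these genes, *Esrra*, an orphan nuclear receptor that works with PGC-1, had the highest pileups, with 17.9 (12.8 to 24.3) in NG, 18.7 (14.6 to 23.5) under HG+NT and 13.8 (10.8 to 17.4) under HG+miR-93. *Yy1* had 11.2, 14.5 and 12.2, *Nrf1* 8.93, 5.19 and 7.97 and *Tfam*, the transcription factor of mitochondrial DNA, 7.15, 6.75 and 4.86. *Ppargc1a*, encoding the coactivator PGC-1α, had 9.83 (6.16 to 14.9) in NG, 4.67 (2.77 to 7.39) under HG+NT and 3.3 (1.92 to 5.29) under HG+miR-93, and the NG and HG+miR-93 intervals were apart. Its highest peak had summits at 1093, -11 and -544 nt from the nearest TSS, so that different positions were compared. *Ppargc1b* had 8.04, 6.49 and 6.22, with summits at 1579, 1511 and 944 nt from the nearest TSS.

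The 34 other genes of the respiratory chain and of its assembly, such as *Cycs* (cytochrome c), *Cyc1* (cytochrome c1) and *Surf1* (an assembly factor of complex IV), are not covered by the symbols above. Their median pileup was 8.93 in NG, 7.27 under HG+NT and 6.90 under HG+miR-93, with percentiles by fold of 63.8, 54.0 and 43.9. From NG to HG+NT 9 were higher by at least 20 points (26.5%) and 14 lower (41.2%), where 24.6% of all genes were called in either direction. In the next step 7 were higher (20.6%, against 20%) and 9 lower (26.5%, against 20.1%), so that the shares of rises were close to those of all genes. *Cycs* had pileups of 12.1 (7.95 to 17.5) in NG, 12.7 (9.41 to 16.8) under HG+NT and 9.91 (7.38 to 13) under HG+miR-93 and *Cyc1* of 4.91 (2.45 to 8.79) in NG, 6.75 (4.41 to 9.89) under HG+NT and 7.58 (5.39 to 10.4) under HG+miR-93, and *Cyc1*, on chromosome 15, was higher by 55.9 points in HG+NT than in NG.

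Other housekeeping families are given beside them. The median pileup, in the order NG, HG+NT, HG+miR-93, was 8.93, 7.01 and 5.93 for 78 genes of mitochondrial ribosomal proteins (Mrpl and Mrps), 8.93, 6.75 and 6.02 for 40 proteasome genes (Psma to Psmd), and 9.38, 7.01 and 6.12 for 86 genes of cytosolic ribosomal proteins (Rpl and Rps). The ratio of HG+NT to NG was 0.825, 0.801 and 0.806 at their medians, beside 0.808 for the oxidative phosphorylation genes. The ratio of HG+miR-93 to HG+NT was 0.873, 0.913 and 0.826, beside 0.941. By fold, 37.2%, 30% and 36.0% of these families were lower by at least 20 points from NG to HG+NT, beside 33.0%. From NG to HG+miR-93 the shares were 46.2%, 40% and 46.5%, beside 33.0%. Strong promoter peaks were found for 55.1%, 57.5% and 50% of these families in NG, beside 47.3%, for 28.2%, 32.5% and 30.2% under HG+NT, beside 29.7%, and for 14.1%, 10% and 12.8% under HG+miR-93, beside 23.1%. The oxidative phosphorylation genes were thus below the 3 families in NG, within their range under HG+NT and above them under HG+miR-93. All genes had 33.4%, 25.9% and 21.5%, so that the share under HG+miR-93 was close to that of all genes. Outside chromosomes 8, 15 and 19 it was 17.5%, against 18.2% of all genes there. From NG to HG+NT the median ratio of the oxidative phosphorylation genes thus lay within the range of the 3 families. In the step to HG+miR-93 it lay above all 3, a difference that could not be tested. In that step the median ratio was 0.952 for all genes and 0.985 for the other respiratory chain and assembly genes. Both were above the 0.941 of the oxidative phosphorylation genes, whose higher place was thus relative to the 3 families only.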

How the data were processed

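DNase-Seq was carried out in mouse podocytes in 3 conditions, with 2 replicates each. As the study's methods and the submitters' processing notes give it, base calling used CASAVA 1.8.2, reads were trimmed with TrimGalore and aligned with Bowtie, and the authors called peaks with MACS2 on the pooled replicates against 1 genomic DNA input (mm10, GRCm38). The deposited lists give each peak's fold over input as a ratio, its −log10 p, a −log10 q listed here as a score, and the summit. Fragment counts per replicate were not used here.

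Genes and TSSs came from GENCODE vM21. A promoter peak overlapped 500 nt on either side of a TSS. Percentiles refer to the 21835 genes that had 1 or more in each list. Fragments and the local input mean were solved jointly from fold and p, using the background mean of 1.43 and otherwise steps of 0.02, with the fewest fragments where several solutions remained. This choice was made after the values were seen, and the script was tested on simulated data. The promoter peaks with 1 solution made up 99.7% (NG), 98.7% (HG+NT) and 97.3% (HG+miR-93). Pileup intervals are exact Poisson, at 95%. Calls were a percentile difference of at least 20 points, intervals that were apart, or a place among the 20000 strongest peaks. No test between conditions was possible.

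Named genes were all of complex II, the 2 highest and 2 lowest of each other complex by mean percentile, the 3 largest rises and falls in both successive steps, isoform pairs and regulators. Core and assembly subunits were named for their role, or after their values were seen. The members and lists were chosen with earlier results of these data known, the separation of chromosomes 8, 15 and 19 included. Scripts ran in Python 3.11.15 with scipy 1.17.1, pandas 2.3.3, numpy 2.4.6 and, for plots, matplotlib 3.10.9. Of the 91 genes, 71 were in the RefSeq promoter table and 51 had its start within 50 nt of the TSS used, and the sequences shown were read from the GRCm38 genome. Values of some single genes are not reported here.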

Additional observations from a re-analysis of the deposited data

How the results depend on the processing

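Of 97 values recomputed under alternatives, 79 stayed within 1.5 times the reported count or within its spread, and 18 did not. Ranked by pileup in place of fold, the median percentile of the 91 genes was 71.6 (NG), 73.3 (HG+NT) and 70.1 (HG+miR-93). The genes higher and lower by at least 20 points were then 5 and 8 (NG to HG+NT, against 10% and 10.1% of all genes), 3 and 7 (HG+NT to HG+miR-93, 5.28% and 5.5%) and 3 and 11 (NG to HG+miR-93, 11.2% and 10.5%). The larger share of falls by fold from NG to HG+NT was thus not seen by pileup rank. Ranked by −log10 p, the HG+NT median was 56.9. With a threshold of 30 points, 10 were higher and 10 lower from HG+NT to HG+miR-93 (11%, against 12.4% of all genes, in either direction). Without chromosomes 8, 15 and 19, 10 of 80 were higher from NG to HG+miR-93 (12.5%, against 25.1%). With summits within 500 nt of a TSS, 12 of 77 were lower from HG+NT to HG+miR-93 (15.6%, against 20%). Among the 50000 strongest peaks, 45 genes had a promoter peak (HG+NT, 49.5% against 44.6% of all genes) and 41 did under HG+miR-93 (45.1% against 41%). Among the 5000 strongest it was 26 in NG (28.6% against 18.7%) and 9 in HG+miR-93 (9.89% against 10.4%). A higher threshold and fewer peaks lower such counts by construction, and more peaks raise them. Leaving out chromosomes or distant summits leaves fewer genes to count. For the other settings the cause was not tested. No paired analysis was possible because the replicates were pooled into 1 list per condition, and for the same reason no replicate could be left out. Depth limits single promoters, which rest on 5 to 37 fragments in NG.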
